A study of Homo sapiens with 8 samples.

Results

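The E protein genes TCF3, TCF4 and TCF12, the ID genes ID1, ID2 and ID3, and the bHLH partner genes LYL1 and TAL1 were followed through a list of PML::RARA binding sites. All peaks that carried the symbol of one of these 8 genes were taken, together with every peak without a symbol whose centre lay within 50 kb of the centre of such a peak. This gave 17 of the 15412 peaks in the list, 6 with a member's symbol and 11 without any. ID2, ID3, TCF3 and LYL1 had a peak under their own symbol, and ID1, TCF4, TCF12 and TAL1 had none.

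E proteins are bHLH transcription factors that are made in most tissues and bind E-boxes as dimers. LYL1 and TAL1 are related bHLH factors of blood stem and progenitor cells that bind DNA only together with an E protein. ID proteins have the dimerization domain of the family but no basic region, so a dimer of an E protein with an ID protein does not bind DNA. The balance between E proteins, their partners and ID proteins is known to govern lineage choice in blood cells.

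The peaks come from U937-PR9 cells, derived from the human monocytic line U937, in which zinc switches on an inserted PML::RARA gene. PML::RARA, the fusion that drives acute promyelocytic leukemia, keeps the DNA-binding domain of the retinoic acid receptor RARA. For 5 h the cells were kept with ZnSO4 at 100 μM, which induces the fusion, or with water, and Cut&Run, in which a nuclease tethered to an antibody cuts out the bound DNA, was applied with anti-PML::RARA and anti-RARA antibodies. With 2 replicates of each condition and antibody there were 8 libraries, and all values below are from a single list, that of the anti-PML::RARA antibody after induction. The uninduced list and the lists of the anti-RARA antibody were not analysed here. Effects of zinc and of the fusion protein cannot be told apart in this list, since all its cells had received zinc. All groups carry the transgene, and the identity of the cells could not be checked against marker genes, as no expression was measured in these libraries.

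For each peak the list gives a position on hg19, a width, a total signal summed over the peak, and its largest signal, here called the peak height. The apex is the midpoint of the stretch that holds the largest signal. A peak is called labelled when the authors had assigned it the symbol of a gene whose promoter its apex overlapped. Over the whole list the median height was 25 (13 to 87) and the median width 829.5 bp (77 to 7313). The 7169 labelled peaks had a median height of 26 and a median width of 1108 bp. Each peak has 1 value, with none for the single replicates, the sequencing depth is unknown, and no spread between replicates can be given, so the comparisons below are descriptions of peaks within 1 list and carry no test. Ranks count from 1 at the highest or widest of the 15412 peaks, and peaks of equal value share a rank.

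The sequence around the apex is printed for the ID1, ID3 and TCF3 start site peaks, because these peaks lie at the genes' own promoters. Each run is hg19 sequence (GRCh37) in the direction of the named gene, 5′ to 3′, within 75 bp on each side of the apex and ended where an annotated UTR begins, and the apex is base 76 of the run. Capitals mark motifs on either strand. One kind is the hexamer of retinoic acid response elements, AGGTCA, for which the variants that read AGTTCA were accepted, as were those reading GGGTCA and those reading GGTTCA. E-boxes were matched as CAGCTG or in the form CAGGTG. The letters AGATAA were read as GATA sites. For RUNX sites the letters TGTGGT were used, and for ETS sites the letters GGAAGT. The apexes of the labelled ID2 peak and of the TCF12 peak lay in annotated UTR sequence and are not shown.
ID1 start site peak of height 34, chr20:30192939-30193085, plus strand: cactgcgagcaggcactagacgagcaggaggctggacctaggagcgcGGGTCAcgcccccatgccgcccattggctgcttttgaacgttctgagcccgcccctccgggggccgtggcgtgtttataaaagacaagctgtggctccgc
ID3 promoter peak of height 35, chr1:23886062-23886212, minus strand: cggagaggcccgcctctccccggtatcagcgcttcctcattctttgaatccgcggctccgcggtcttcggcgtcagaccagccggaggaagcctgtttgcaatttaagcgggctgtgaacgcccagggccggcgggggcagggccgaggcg
TCF3 promoter peak of height 36, chr19:1652903-1653053, minus strand: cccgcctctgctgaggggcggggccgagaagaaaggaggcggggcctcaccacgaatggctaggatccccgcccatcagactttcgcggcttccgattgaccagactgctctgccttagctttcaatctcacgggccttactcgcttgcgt

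At ID1 the hexamer GGGTCA lay 28 bases before the apex. It was more than 200 bp from the centre of the ID1 peak, and 1 E-box lay within that distance of the centre. The ID3 and TCF3 runs held none of the motifs, although 1 AGGTCA and 1 ETS site lay elsewhere within 200 bp of the centre of the ID3 promoter peak.

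LYL1, a gene active in blood progenitors, had the 2 highest labelled peaks among these genes, while unlabelled peaks near ID3 and ID1 reached 49 and 47. Its first promoter peak, on chromosome 19 from 13213050 to 13214818, reached a height of 51 over 1769 bp, and its apex was 67 bp away from a start site, on the upstream side. It ranked 551 by height and 1578 by width. The second labelled peak, from 13214998 to 13216395, reached 44 over 1398 bp, its apex being 1218 bp upstream of that start site, and it ranked 1234 by height and 3093 by width. Both exceeded the upper quartile of all labelled peaks, which was 35. Counted by its highest peak, LYL1 ranked 303 of the 6546 gene symbols in the list and stood above 94.8% of them. LYL1 (ENSG00000104903) is on the minus strand from 13209847 to 13213975.

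Over the body of LYL1 lay another peak, without a symbol, from 13208275 to 13212395. It was only moderately high, at 30 (rank 4820), but with 4121 bp it was wider than 99.6% of the peaks and ranked 56. Its apex was in a coding exon of LYL1. The gaps between the 3 peaks were 179 and 654 bp. Joined with all other neighbours in the list that lay less than 1 kb apart, these peaks formed a block of 8121 bp that reached from downstream of LYL1 to beyond its promoter. Of the 14408 blocks and single peaks obtained in this way, 96 held at least 3 peaks, and the LYL1 block ranked 6 by length and 10 by summed signal. The other peak without a symbol near LYL1, from 13258218 to 13258378, was in an intron of STX10 and 42601.5 bp from the centre of the nearer LYL1 peak. It was among the narrowest in the list, with 161 bp (rank 15312), and had a height of 26 (rank 6677).

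**Figure D1:**
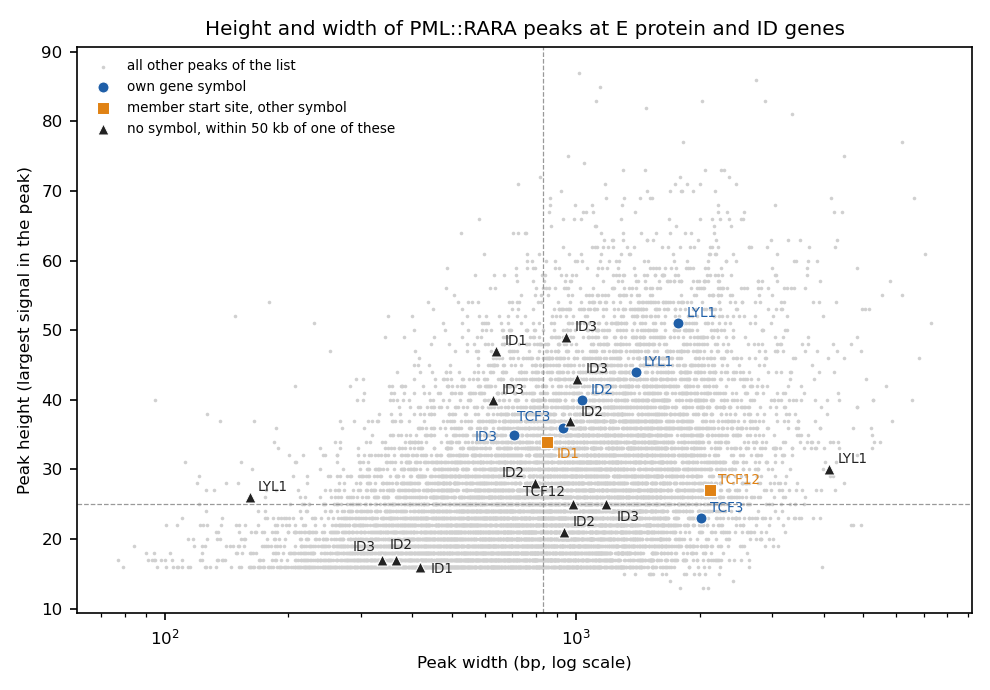
Height of each peak against its width in bp (log scale) for the whole list (grey) and for the peaks at the E protein and ID genes, with dashed lines at the list medians of 25 and 829.5 bp. Blue circles carry the gene's own symbol, orange squares lie at a start site of ID1 or TCF12 under another symbol, and black triangles have no symbol and lie within 50 kb of one of these. LYL1 holds the highest labelled peak, at 51, and the widest peak, at 4121 bp.

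TCF3, the E protein gene best known from B cell development, had both of its peaks at the 5′ end of the gene (ENSG00000071564, minus strand of chromosome 19 from 1609290 to 1652614). The outer peak, from 1652557 to 1653486, reached a height of 36 over 930 bp, its apex being 364 bp upstream of the outermost start site, and ranked 2815 by height and 6647 by width. The inner peak, from 1650247 to 1652264, was lower and wider, at 23 (rank 8433) over 2018 bp (rank 1016). Its apex was intronic, 145 bp upstream of an alternative start site of TCF3. A gap of 292 bp separated the peaks, which as 1 block spanned 3240 bp and ranked 344 by length. The inner peak was the only labelled one of the 6 below the list median height. TCF3 had no peak without a symbol within 50 kb.

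Both TCF3 and LYL1 thus had 2 labelled peaks. In the list as a whole, 8.42% of the gene symbols had more than 1.

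ID2 (ENSG00000115738, plus strand of chromosome 2 from 8818975 to 8824591) had the highest labelled peak of the ID genes. This peak, from 8821264 to 8822300, reached 40 over a width of 1037 bp (ranks 1901 and 5608). Its apex was 106 bp upstream of the start of the canonical ID2 transcript, in a 5′ UTR of a longer one. A second peak covered the start of this longer transcript, from 8818863 to 8819797, and had no symbol although its apex was 27 bp downstream of that start site. Its height was 21 (rank 9879) and its width 935 bp (rank 6596). The remaining peak over the gene, from 8823439 to 8823803 in an intron, was among the weakest in the list, reaching 17 (rank 13294) over 365 bp (rank 13832). Start sites of the antisense transcript ID2-AS1 lay 86 bp from the apex of the labelled peak and 19 bp from that of the second, and the released DNA does not show to which strand's transcript a peak belongs.

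Few short genes held as many peaks as ID2. Of the 3192 protein-coding genes that are no longer than its 5617 bp, 6, or 0.188%, had 3 or more peaks over the gene, and ID2 had 3. The others were HDDC3, MID1IP1, PRELID1, STK16 and ZNRD2. This comparison was chosen after the values had been seen, and both of its limits are ID2's own values. The 5617 bp are counted from the start of the longer transcript, where the peak from 8818863 to 8819797 lies. Upstream of ID2 were 2 further peaks without a symbol. The peak from 8784599 to 8785565, at 34094 bp upstream of the gene, reached 37 (rank 2529) at a width of 967 bp (rank 6277). The nearer one, from 8797242 to 8798038 and 21410 bp upstream, reached 28 (rank 5666) at a width of 797 bp (rank 8087). ID2 was the nearest protein-coding gene of both.

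ID3 (ENSG00000117318, minus strand of chromosome 1 from 23884417 to 23885992) had 1 labelled peak, from 23885720 to 23886427. Its height was 35 (rank 3088), above 77.9% of the list, whereas its width of 708 bp (rank 9126) was above only 40.7%. The apex lay 145 bp upstream of the start site. All 5 peaks without a symbol within 50 kb lay on the downstream side of the gene. The nearest of these, from 23880648 to 23881831, was beyond the end of ID3 and reached 25 (rank 7226) over 1184 bp (rank 4433).

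The other 4 unlabelled peaks lay closer to the start of E2F2, a cell cycle transcription factor gene, than to that of ID3. The intergenic peak from 23866186 to 23866814 reached 40 (rank 1901) over 629 bp (rank 10166), and its apex was 8757 bp from an E2F2 start site. Of the peaks in introns of E2F2, the one from 23854532 to 23855477 was the highest of all unlabelled peaks found by the rule, reaching 49 (rank 706) over 946 bp (rank 6486). The one from 23851148 to 23852154 reached 43 (rank 1386) over 1007 bp (rank 5867). The last, from 23852294 to 23852631, reached 17 (rank 13294) over 338 bp (rank 14156). These peaks were thus higher than the ID3 promoter peak in 3 of 4 cases, and the 2 promoter peaks labelled E2F2 in between both had a height of 28.

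The sequences at the apexes of the 3 highest of these peaks are printed in the direction of ID3 in the same way, because they exceeded the ID3 promoter peak in height.
E2F2 intron peak of height 49, chr1:23854745-23854895, minus strand: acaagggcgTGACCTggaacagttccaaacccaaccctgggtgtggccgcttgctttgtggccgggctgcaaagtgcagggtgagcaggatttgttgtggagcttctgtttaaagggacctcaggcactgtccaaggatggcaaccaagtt
E2F2 intron peak of height 43, chr1:23851676-23851826, minus strand: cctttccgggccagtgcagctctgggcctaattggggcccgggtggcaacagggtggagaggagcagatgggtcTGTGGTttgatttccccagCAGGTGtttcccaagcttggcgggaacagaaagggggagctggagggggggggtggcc
Intergenic peak of height 40 between E2F2 and ID3, chr1:23866407-23866557, minus strand: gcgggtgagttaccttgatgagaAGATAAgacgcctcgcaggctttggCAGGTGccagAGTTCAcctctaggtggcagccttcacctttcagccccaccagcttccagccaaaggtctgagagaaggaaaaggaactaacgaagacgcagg

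In the intron peak of height 49 the hexamer AGGTCA was on the opposite strand, 66 bases from the apex. Outside this run, 2 GATA sites, 1 ETS site and another response element hexamer lay within 200 bp of the centre of the peak. In the intron peak of height 43 a RUNX site overlapped the apex and an E-box began 18 bases after it. Another E-box and 1 ETS site lay outside that run within 200 bp of the centre of the peak. The intergenic peak of height 40 held a GATA site at bases 24 to 29, an E-box at bases 49 to 54 and an AGTTCA hexamer at bases 59 to 64 of the run.

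The unlabelled peaks around ID2 and ID3, 4 and 5 in number, were more than most labelled genes had. Of the 5 in the window of ID3, however, 4 lay closer to the start of E2F2 than to that of ID3. The counts over all symbols likewise took every unlabelled peak within 50 kb, whichever gene was nearest. Of the 6546 gene symbols, 7.56% had 4 or more unlabelled peaks within 50 kb and 53.4% had none, as TCF3. LYL1 had 2. The highest number was 12.

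**Figure D2:**
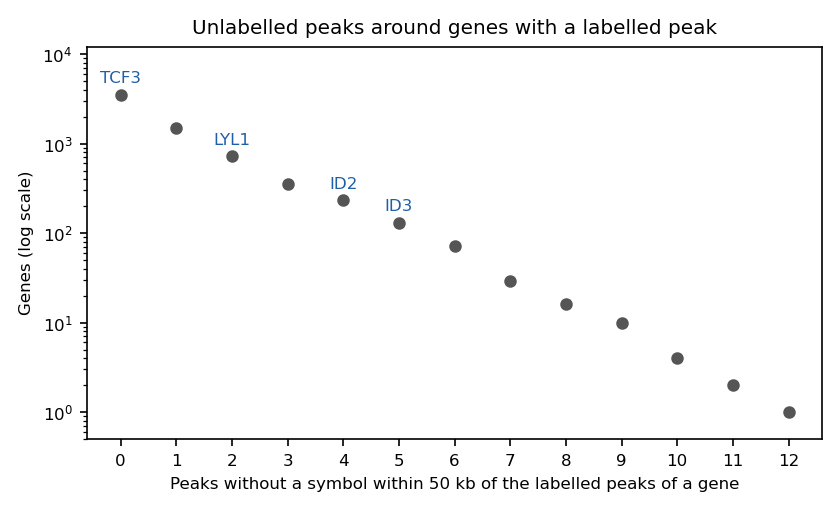
Number of gene symbols (log scale) by how many peaks without a symbol lay within 50 kb of their labelled peaks, over all 6546 symbols in the list. TCF3 is at 0, where 3495 symbols stand, LYL1 at 2, ID2 at 4 and ID3 at 5. Of the 5 at ID3, 4 lie closer to the start of E2F2.

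ID1 and TCF12 had no peak under their own symbol, and yet each had a peak at its start site that the annotation assigned to a neighbouring noncoding gene. At ID1 (ENSG00000125968, plus strand of chromosome 20 from 30193086 to 30194318) the peak from 30192806 to 30193654 was labelled MIR3193. Its apex was 72 bp upstream of the start of ID1 and 1975 bp from that of MIR3193. The peak reached 34 over 849 bp (ranks 3401 and 7484), close to the values of the ID3 promoter peak. Downstream of ID1, and nearest to it among protein-coding genes, a peak without a symbol from 30198330 to 30198969 was higher, at 47 (rank 890), though only 640 bp wide (rank 10017). Its mean signal was 25.2 per bp, the largest among the peaks described here, against 16.8 for the first LYL1 promoter peak and 9.72 for the ID1 start site peak. Another, from 30200596 to 30201013, had a height of 16, near the lower end of the list.

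The run around the apex of the peak downstream of ID1 is printed in the direction of ID1, because this peak outranked the one at the promoter. The run held none of the motifs, although 1 GATA site lay elsewhere within 200 bp of the centre of the peak.
Peak of height 47 downstream of ID1, chr20:30198466-30198616, plus strand: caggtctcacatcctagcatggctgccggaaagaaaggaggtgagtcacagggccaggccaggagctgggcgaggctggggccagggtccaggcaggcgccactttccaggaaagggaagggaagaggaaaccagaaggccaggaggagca

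TCF12 (ENSG00000140262, plus strand of chromosome 15 from 57210821 to 57591479), an E protein gene, was covered at its 5′ end by a peak from 57209885 to 57212004. The list gives this peak the symbol LOC145783, a former name of TCF12-DT, the divergent transcript of TCF12. Its apex was 133 bp upstream of a TCF12 start site and 3 bp from one of TCF12-DT. The nearest protein-coding start site, at 81 bp, was that of another gene, ENSG00000285253, and the apex lay in a 5′ UTR of that gene. The peak was broad, with 2120 bp (rank 848), and of ordinary height, at 27 (rank 6155). A peak without a symbol, from 57179080 to 57180065, lay 31411 bp upstream of TCF12 and had a height of 25 (rank 7226). Its apex was in an intron of ENSG00000285253 and only 105 bp from a start site of another gene, LINC03065.

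With these peaks, 6 of the 8 genes had an apex within 1 kb of one of their start sites, against 39.3% of the 20090 protein-coding genes. By the symbols in the list, 4 of 8 had a promoter peak, against 30.0%. Of the protein-coding genes with an apex within 1 kb of a start site, 26.0% lacked a peak under their own symbol, as ID1 and TCF12 did.

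TCF4 and TAL1 had no peak over the gene in this list. The TCF4 gene (ENSG00000196628, minus strand of chromosome 18 from 52889416 to 53332018) is 442603 bp long, and the nearest peak, from 52443449 to 52443781, was 445635 bp away, had a height of 16 and carried no symbol. Of all protein-coding genes, 8.01% were as far from any peak or farther. Among the 416 genes at least as long as TCF4, 64.7% had no peak over the gene. Chromosome 18 held 173 peaks in all. The TAL1 gene (ENSG00000162367, minus strand of chromosome 1 from 47681962 to 47697897) was 36512 bp from the nearest peak, a weak one of height 17 from 47644774 to 47645450 that was labelled LINC00853. A distance as large or larger was found for 35.9% of protein-coding genes. The absence of a peak says only that none passed the authors' thresholds there.

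**Figure D3:**
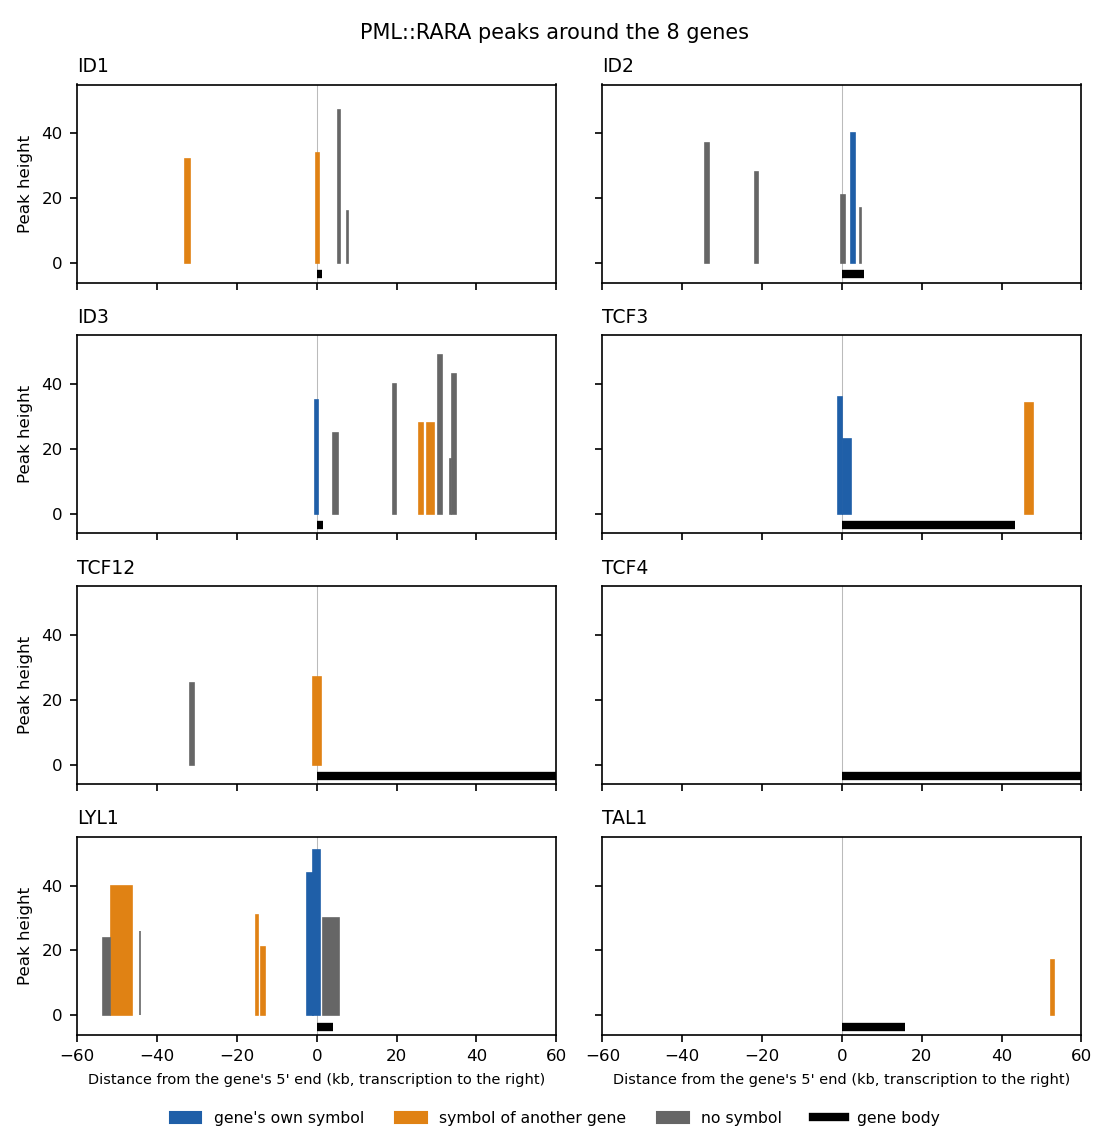
Peaks within 60 kb of the 5′ end of each of the 8 genes, drawn in the direction of transcription, with the distance in kb on the horizontal axis and the peak height on the vertical axis. Each bar is 1 peak at its true width with a thin outline, blue under the gene's own symbol, orange under another symbol and grey without one, and the black line is the gene. LYL1 and TCF3 have 2 blue peaks at the 5′ end, ID1 and TCF12 an orange one, and TCF4 has no peak in the window.

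As a group, the 6 labelled peaks had a median height of 38 and a median width of 1217.5 bp, against 26 and 1108 bp over all labelled peaks. The median width was 983.5 bp when only the highest labelled peak of each gene was taken. For peaks with an apex within 1 kb of an own start site, some of them without a member's symbol, it was 935 bp. Both lie below 1108 bp, but no median for the same selections over the whole list is given, so these sets are unlike. By height 5 of the 6 were at or above the list median of 25, below which 43.6% of all labelled peaks lay. Of the 6, 4 were above the upper quartile of the labelled peaks. The 11 unlabelled peaks had a median height of 28 and a median width of 935 bp, against 23 and 634 bp over all 8243 unlabelled peaks. Among the 11 were peaks nearest to E2F2, of heights 49, 43, 40 and 17, and 1 nearest to STX10, of height 26. Of the 11, 8 were at or above the list median height of 25, which lies above the median of all unlabelled peaks. Peaks of 1 locus lie close together and are not independent.

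The motifs were then looked for on both strands in the 200 bp on either side of the centre of each peak. E-boxes, the sites that E protein dimers bind, were found in 9 of the 17 peaks, or 52.9%, and in 48.1% of all peaks of the list. Among the labelled peaks they were in 2 of 6, the inner TCF3 peak and the second LYL1 peak, against 42.1% of all labelled peaks. Among the unlabelled ones they were in 7 of 11, against 53.2%. At least 1 of the 4 response element hexamers was found in 11 of 17 peaks, against 54.8% of the list, and a pair of them with 0 to 13 bases in between in 0 of 17, against 3.48%. AGGTCA alone was in 5 of 17 (22.8% of the list), the ETS site in 6 (38.9%), the RUNX site in 3 (27.6%) and the GATA site in 2 (9.23%). Several of these orders turned with the window. Around the apex in place of the centre, E-boxes were in 3 of the 6 labelled peaks, against 40.1% of all labelled peaks, and within 100 bp of the centre they were in 2 of 6, against 23.9%. A pair of hexamers was in 1 of 17 around the apex (3.57% of the list) and the GATA site in 1 (9.75%). AGGTCA, in 7 (23.1%), and the ETS site, in 4 (42.3%), kept their order there.

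Further genes of the pathway were read from 4 lists, against the 30.0% of protein-coding genes with a peak under their own symbol. Among 14 partners and cofactors of TAL1 and LYL1 that are not bHLH factors, 8 had a labelled peak. The highest were those of CBFA2T3, a corepressor of the TAL1 complex, with a height of 41 over 3225 bp, LMO2, the adaptor that joins TAL1 or LYL1 to LDB1, with 36 and 4 labelled peaks, and SSBP2, which stabilises LDB1, with 33. LDB1 itself reached 23. GATA1, GATA2, GATA3, LMO1, LDB2 and RUNX1T1 had no peak under their symbol.

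Of 27 genes for tissue-specific bHLH factors and ID4, 1 had a labelled peak, OLIG1, with a height of 29. Of 11 regulators of ID transcription, among them receptors and SMAD factors of BMP signalling, 4 had one. SMAD6, an inhibitor of this signalling, had the highest, with 58 (rank 196) and a width of 3638 bp, followed by EGR1, an immediate early transcription factor, with 44 and ACVR1, a type I receptor, with 25. Of 10 coregulator and turnover genes of E and ID proteins, 6 had one. The highest were USP1, which removes ubiquitin from ID proteins, with 42, CDC20, an activator of the anaphase-promoting complex, with 41, and FZR1, another such activator, with 31. The p300 gene EP300, whose product is a coactivator of E proteins, had a peak of height 26. Counted by an apex within 1 kb of an own start site, the numbers were 8 of these 10, 4 of the 11 and 1 of the 27. Of the 14 partners and cofactors of TAL1 and LYL1, 7 had such an apex. The share over all protein-coding genes was 39.3%.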

How the data were processed

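Cut&Run peaks of U937-PR9 cells were analysed from 1 list. Trimmomatic was used by the authors for trimming, Bowtie2 for alignment to hg19, Samtools for removal of PCR duplicates and Bedtools for removal of blacklisted reads. They called peaks with SEACR against paired controls (norm union), and kept peaks reproducible over 2 replicates at IDR < 0.05. Tool versions are not given in the sources used here. The authors deposited, for each peak, a total signal and a score, which is the largest signal in the peak, without stated normalization. The contents of both columns were inferred from their values, since the total was below height times width in all 15412 peaks, and whether they come from 1 replicate or from pooled reads is not given in the sources used here. Coordinates are printed as deposited and were taken as 1-based. That the list belongs to induced cells and the fusion-specific antibody was taken from its name and its number of peaks. Gene symbols came from the authors' annotation (UCSC known genes). Depth is unknown.

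Start sites, exons and UTRs were taken from GENCODE release 44 on GRCh37, the same build. Of 6546 symbols, 6381 occur there. LOC145783 was resolved by its gene number in RefSeq. The genes and lists were chosen with earlier results of these data known, and the 3 highest peaks of each list are named. OLIG1 was the only one in its list. LDB1 and EP300, and the list genes without a labelled peak, were named after their values were seen. The ranks by height, the 50 kb rule and the search for E-boxes were tested on simulated data, and the searches for the other motifs were not. Alternatives were other reaches, thresholds, promoter definitions, rankings and motif windows. Python 3.11.15, numpy 2.4.6, pandas 2.3.3, scipy 1.17.1, pysam 0.24.0 and matplotlib 3.10.9 were used. The sequence at the LYL1 peaks is not reported here.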

Additional observations from a re-analysis of the deposited data

How the results depend on the processing

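Of the 8 genes, 4 had a promoter peak by symbol, 6 had one by an apex within 1 kb or within 3 kb of an own start site, 4 among peaks at or above the median or the upper quartile of height, and 3 among those at or above the median width, where ID3 is lost. The 17 peaks found by the rule became 11 with a reach of 20 kb and 8 among peaks at or above the median width, because both settings admit fewer peaks. They lay between 12 and 23 under the other alternatives. The 12 were found when only unlabelled peaks nearest a member start site were kept, which drops those nearest E2F2 and STX10. The median share of the list below the labelled peaks by height was 83.2%, and it was 80.6% when ranked among labelled peaks only and 74.0% by total signal in place of height. The median height was 34 and the median width 935 bp for peaks with an apex within 1 kb of an own start site. They were 38 and 983.5 bp with only the highest labelled peak of each gene. Both widths fell below the 1108 bp of all labelled peaks, for which the same selections were not made. E-boxes were in 35.3% of the 17 peaks within 100 bp of the centre (28.4% of the list), in 52.9% around the apex (46.5%), and in 33.3% of the labelled peaks alone (42.1% of all labelled peaks). The hexamer variants and pairs, the upper quartile of height, the start site peaks with another label and the labelled peaks alone were chosen after seeing the data. No paired analysis was possible because replicates have no separate values here, which also prevented leaving out a replicate.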
